A study of Mus musculus with 4 samples.

Results

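The genes described are the linker and core histone genes, taken by name: every probe whose single gene symbol begins with H1f, H2ac, H2az, H2bc, H3c, H3f3 or H4c, or with an older Hist1h or Hist2h name. The rule found 63 genes among 19057 with a named probe, measured by 94 probes. The family was chosen by the values of H1f2, which read higher on both unreplicated arrays. The values of H1f2 are therefore given as a description, with no test, and the other members entered by symbol alone. Of the 63 genes, 59 had a brightest probe above background on at least 1 array and were compared, and 52 were above background on all 4. H1f4, H1f7, H1f8 and H2bc1 were above background on none. H1f6, H2ac1, H2bc3, H2bc18, H4c4, H4c8 and H4c14 passed on some arrays only, so part of their place was fixed by that filter.

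Histones are the proteins that package DNA. An octamer of the core histones H2A, H2B, H3 and H4 forms the nucleosome, and the linker histone H1 binds where the DNA enters and leaves it. Most of their genes lie in clusters, are transcribed mainly while DNA is being copied in S phase, and give short messages that end in a stem-loop in place of a poly(A) tail. A smaller group, here the H2A.Z genes, the H3.3 genes and the linker gene H1f10, is made throughout the cell cycle from ordinary polyadenylated messages. Many labelling kits for such arrays start copying at the poly(A) tail, and how far this shaped the values of the clustered genes was not tested.

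The cells were spleen macrophages of the marginal zone, sorted as CD11b low, F4/80 negative, I-Ab negative and SIGN-R1 positive from BXD2 mice aged 2.5 months, an inbred strain prone to autoimmune disease. Each array held RNA of 2 mice. There were 2 arrays of BXD2 mice given PBS (controls 1 and 2), 1 array of BXD2-Ifnar-/- mice given PBS, which lack the type I interferon receptor, and 1 array of BXD2 mice given 25 µg of sLTβR-Fc intravenously, a soluble lymphotoxin receptor used to capture its ligand. Cells were taken 10 hours after injection, and the series as given here has no group that received a control Fc protein. The labels do not say whether the control arrays came from different mice, so their spread may be technical.

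Intensities are given after quantile normalisation, which gives every array the same distribution of values, and after raising dim values to a floor of 111, the mean background limit. Log2 differences are from the mean of the 2 controls on that scale and understate changes of dim genes. Upper quartiles of the deposited intensities ran from 146 in the sLTβR-Fc-treated sample to 188 on control 1, so the scaling matters, and class counts are given with and without it. Of 5 markers of marginal zone macrophages, Siglec1 and Cd5l were not above background and the SIGN-R1 gene Cd209b was dim, at 127 and 130.05 in the controls, 152 in the Ifnar-/- sample and 145 after sLTβR-Fc. In such bulk samples, fewer cells of a type and less RNA per cell cannot be told apart.

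The upstream sequences of 4 linker genes are shown first because these genes lie in the large histone cluster of chromosome 13 and yet read differently on the arrays. They are the 150 bases before the transcription start, from RefSeq promoter windows on build GRCm38.p6, written 5′ to 3′ on the strand of the gene, with capitals at every match, on either strand, to the CCAAT box (CCAAT), the common form of the TATA box (TATAAA), the box known from linker histone promoters (AAACACA) or the octamer known from H2B promoters (ATTTGCAT). H1f1 is at chr13:23763518-23763667 (+), H1f2 at chr13:23738657-23738806 (+), H1f3 at chr13:23554882-23555031 (+) and H1f5 at chr13:21780626-21780775 (-).
H1f1: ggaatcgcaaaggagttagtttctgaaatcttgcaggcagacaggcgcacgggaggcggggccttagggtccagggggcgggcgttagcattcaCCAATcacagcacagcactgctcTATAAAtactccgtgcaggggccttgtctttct
H1f2: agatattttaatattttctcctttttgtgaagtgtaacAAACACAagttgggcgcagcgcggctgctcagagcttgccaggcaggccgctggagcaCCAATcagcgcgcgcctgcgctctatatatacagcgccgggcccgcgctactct
H1f3: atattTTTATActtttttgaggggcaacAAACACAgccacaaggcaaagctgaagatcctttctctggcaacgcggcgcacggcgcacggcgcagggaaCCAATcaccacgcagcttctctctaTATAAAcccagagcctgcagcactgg
H1f5: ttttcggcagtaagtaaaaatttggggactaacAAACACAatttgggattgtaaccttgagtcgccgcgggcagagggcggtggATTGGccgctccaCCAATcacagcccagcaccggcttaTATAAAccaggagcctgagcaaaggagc

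CCAAT stood in all 4 of these sequences, TATAAA in those of H1f1, H1f3 and H1f5, and AAACACA in those of H1f2, H1f3 and H1f5. In the whole 300-base windows, 58 of the 63 genes had an entry. A gene was counted when any of its windows held a match, while the shares of all 32851 are of single windows, so the measures differ. CCAAT was found in 48 of the 58 (82.8%, against 37.4% of all 32851 windows), TATAAA in 32 (55.2% against 13.6%), AAACACA in 10 (17.2% against 7.18%) and ATTTGCAT in 14 (24.1% against 1.74%). The matches went by class. AAACACA was found for 5 of 9 H1 genes and for none of the 7 H3 or 11 H4 genes. ATTTGCAT was found for 7 of 11 H2B and 6 of 16 H2A genes and for no H1, H3 or H4 gene. These are matches of letters only, in windows where none of the arrays measured binding.

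H1f2, which encodes the linker histone H1.2, read 1219.5 on control 1, 1392 on control 2, 4719 in the Ifnar-/- sample and 4788 in the sLTβR-Fc-treated sample. Both unreplicated arrays stood far above both controls, which lay close together. The differences from the control mean were 1.86 and 1.88 on the log2 scale, or 3.62-fold and 3.68-fold, against 0.19 between the controls. A further H1f2 probe read 992, 1151, 3328 and 3030 in the same order of arrays, with log2 differences of 1.64 and 1.50. In the intensities as deposited, the brightest probe read 1528 and 1541 in the controls, 4418 in the Ifnar-/- sample and 3747 in the sLTβR-Fc-treated sample. Both unreplicated arrays were above both controls there too.

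H1f2 was the 1 histone gene 2-fold above both controls, on either array, and no histone gene was 2-fold below both. Of all 14460 genes compared, 0.574% were 2-fold higher and 0.954% 2-fold lower than both controls in the Ifnar-/- sample, and 1.02% and 0.477% in the sLTβR-Fc-treated sample. With H1f2 having chosen the family, nothing is read from its own count. Taken against control 1 alone, 7 members were 2-fold higher in the sLTβR-Fc-treated sample, and against control 2 alone 4 were, so the count there rests on which control is used. It also rests on the background: after background subtraction 22 members were 2-fold above both controls there, and 4 were 2-fold higher and 1 was 2-fold lower in the Ifnar-/- sample. H1f2 is included in each of these counts of higher members.

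The other linker genes compared did not reach 2-fold on either array. H1f5, which encodes H1.5, read 234 and 216 in the controls, 165 in the Ifnar-/- sample and 215 in the sLTβR-Fc-treated sample, lowest in the Ifnar-/- cells at log2 -0.45. As deposited H1f5 read 273 and 235 in the controls, 155 in the Ifnar-/- sample and 176 in the sLTβR-Fc-treated sample (log2 -0.71 and -0.53). H1f10, the replication-independent linker histone H1.10, read 136 and 140 in the controls, 114 in the Ifnar-/- sample and 164 in the sLTβR-Fc-treated sample. It lay below the controls on the first and above them on the second, where the values as deposited (146 and 147, then 144) put it just below them. H1f1, which encodes H1.1, read 128 and 123 in the controls and 130.3 in the Ifnar-/- sample, close to them, and 179 in the sLTβR-Fc-treated sample. H1f3, for H1.3, was dim throughout, at 119 and 126 in the controls and 127 and 130.2 on the unreplicated arrays. H1f6, the testis linker histone, was above background on 1 array, the sLTβR-Fc-treated sample, at 112.

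**Figure D1:**
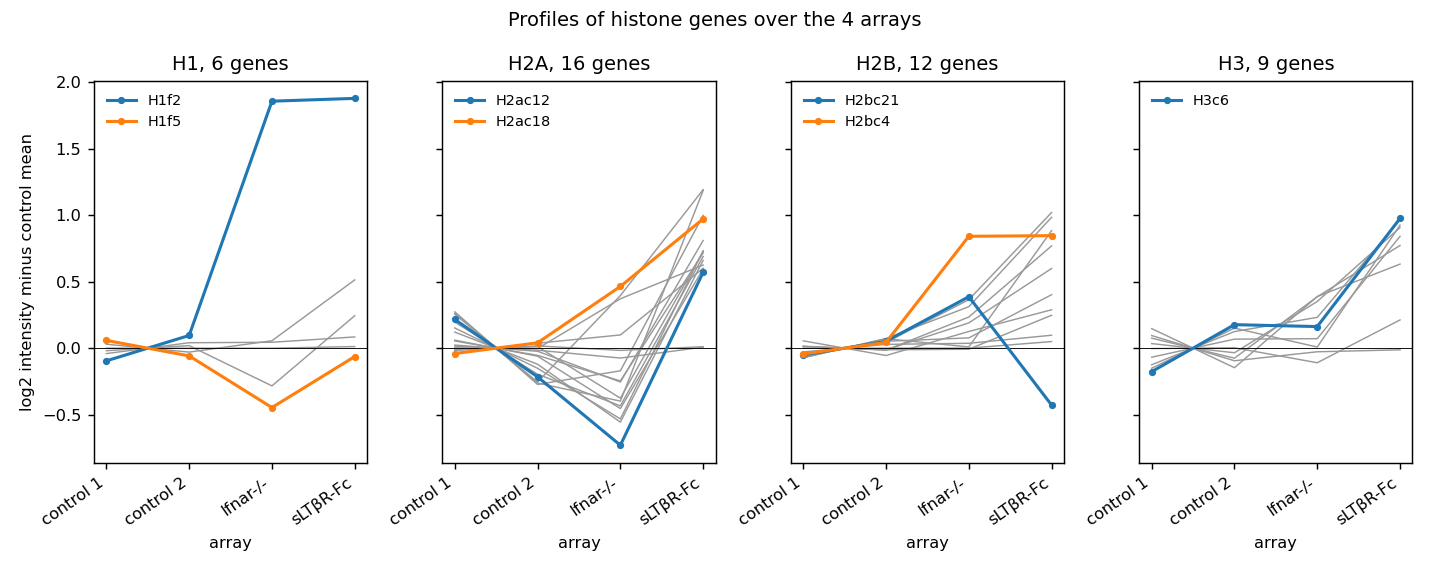
Log2 intensity minus the mean of the 2 controls (vertical axis) on each of the 4 arrays (horizontal axis), 1 line per gene, for the H1, H2A, H2B and H3 classes; lines only join the values of a gene, and the colored genes are named in each panel. H1f2 stands at 1.86 and 1.88 while H1f5 is at -0.45 and -0.06, and most H2A lines lie below 0 in the Ifnar-/- sample and above 0 in the sLTβR-Fc-treated sample.

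The replication-dependent H2A genes had the lowest median of the classes in the Ifnar-/- sample. Of 16, 10 lay below both controls and 4 above both, where 30.5% of all genes lay below both and 41.5% above both, and the class median was -0.25 against 0.0 for all genes. Of all 59 histone genes 15 lay below both controls, so 10 of those 15 were H2A genes. Without scaling, 13 H2A genes lay below both and 2 above both, where 61.9% and 13.4% of all genes did. The class median was -0.164 without control 1 and -0.332 without control 2. H2ac12 read 368 and 273 in the controls and 191 in the Ifnar-/- sample, a log2 difference of -0.73 ± 0.21 (SE), but also 470.0 in the sLTβR-Fc-treated sample. That SE was set by genes of like intensity and not by the spread of H2ac12 itself. The Ifnar-/- sample was the lowest of the 4 and the sLTβR-Fc-treated sample the highest, and a further H2ac12 probe repeated this order (247, 177, 130.3 and 289.8). The controls themselves stood 0.43 apart in this gene, and in the values as deposited its sLTβR-Fc-treated value of 346 lay between the controls (446 and 299.8).

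The same order held in several bright H2A probes, named here after their values were seen. H2ac24 read 14659 and 12397 in the controls, 9170 in the Ifnar-/- sample and 21305 in the sLTβR-Fc-treated sample. H2ac7 read 12397 and 11401, then 8678 and 17967. H2ac22 read 9629 and 7336, then 6222 and 13551. In each of these genes control 2 lay below control 1, the Ifnar-/- sample below both and the sLTβR-Fc-treated sample above both. This order was, from high to low, sLTβR-Fc, control 1, control 2 and Ifnar-/-. It was picked after these H2A values were seen, so its counts in H2A genes are only a description. The order was found in 8 of the 16 H2A genes, in 1 of the other 43 histone genes (H4c17) and in 4.35% of all genes. In the values as deposited it was found in 7 H2A genes and in 2.37% of all genes.

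Between the unreplicated arrays, 9 histone genes stood 2-fold higher in the sLTβR-Fc-treated sample than in the Ifnar-/- sample and 0 stood 2-fold the other way, against 1.58% and 0.719% of all genes. All 9 were H2A genes: H2ac7, H2ac11, H2ac12, H2ac13, H2ac15, H2ac20, H2ac21, H2ac22 and H2ac24. The ratio was lowest in H2ac7, at 2.07, was 2.46 in H2ac12, and was highest in H2ac21, which read 506 and 352 in the controls, 319.9 in the Ifnar-/- sample and 959 in the sLTβR-Fc-treated sample. In the values as deposited 6 H2A genes passed, against 0.83% of all genes. The H2A genes encode nearly identical proteins and their messages are close copies, so probes may share targets, and the genes may not be 9 separate measurements.

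Not every H2A gene followed. H2ac18 read 574 and 607 in the controls, 814 in the Ifnar-/- sample and 1158 in the sLTβR-Fc-treated sample, above both controls on each. H2ac6 read 204 and 143 in the controls, 225 and 391 on the unreplicated arrays, and had the highest difference of the class in the sLTβR-Fc-treated sample, at log2 1.19 (2.28-fold the control mean). H2ac19, close to background, read 127 and 125 in the controls and 120 and 127 on the unreplicated arrays. The log2 difference of further H2A probes above background on every array was below 0 in 4 of 5 in the Ifnar-/- sample and above 0 in 5 of 5 in the sLTβR-Fc-treated sample, the exception being a probe of H2ac18.

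Summed over a list of 12, neutrophil markers had the same order over the arrays as these H2A genes, but only 6 of the 12 had it singly. All 12 lay below both controls in the Ifnar-/- sample, at a median of -1.01, and 6 lay above both in the sLTβR-Fc-treated sample. Of all genes, 30.5% and 43.3% did. Their summed intensity was 51103 on control 1, 35261 on control 2, 18012 in the Ifnar-/- sample and 71401 in the sLTβR-Fc-treated sample. Of the 12, 6 had the order described above and 9 were 2-fold higher in the sLTβR-Fc-treated sample than in the Ifnar-/- sample. Of all genes, 4.35% and 1.58% were. All 12 were among the genes compared, and the granule genes Ltf and Camp read 215 and 197 in the Ifnar-/- sample, above the floor. In the sLTβR-Fc-treated sample Ltf read 2138 and Camp 1555, each between its 2 control values. Erythroid precursor markers summed to 9046, 4623, 3032 and 4017 in the same order of arrays and B cell markers to 22941, 21784, 33719 and 16309. Of 5 eosinophil markers, 4 were 2-fold above both controls in the sLTβR-Fc-treated sample, against 1.02% of all genes. The other, Siglecf, passed the background filter on that array alone. The 5 summed to 5087, 5768, 4316 and 27934. T cell markers summed to 8686, 10279, 6588 and 5284. Of 9, 7 lay below both controls in the Ifnar-/- sample and 9 in the sLTβR-Fc-treated sample, against 30.5% and 31.1% of all genes. Plasma cell markers summed to 5232, 5923, 8104 and 8447, with 2 and 4 of 6 above both controls, where 41.5% and 43.3% of all genes were. The part of these cells in the histone values was not tested.

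H2A and H2B genes often lie head to head, and 5 such pairs had both genes on the array with starts at most 250 bases apart, so that 1 stretch of DNA lies upstream of both. The stretches of the pairs H2ac12 with H2bc12 (chr13:22035644-22035820, 177 bases) and H2ac7 with H2bc7 (chr13:23574208-23574380, 173 bases) are shown because in both the H2A gene read lower than its H2B partner in the Ifnar-/- sample. Both are on the forward strand of GRCm38.p6, with capitals as above.
H2ac12 and H2bc12: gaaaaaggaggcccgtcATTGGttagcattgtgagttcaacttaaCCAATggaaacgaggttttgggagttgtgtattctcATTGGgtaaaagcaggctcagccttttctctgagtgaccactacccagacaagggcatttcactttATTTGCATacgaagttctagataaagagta
H2ac7 and H2bc7: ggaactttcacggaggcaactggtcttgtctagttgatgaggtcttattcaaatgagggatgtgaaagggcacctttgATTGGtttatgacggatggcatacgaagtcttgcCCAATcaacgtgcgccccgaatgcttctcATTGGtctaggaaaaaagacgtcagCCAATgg

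Both stretches held CCAAT, as did those of the other 3 pairs, and the first also held ATTTGCAT. In the Ifnar-/- sample H2ac12 lay at -0.73 and its partner H2bc12 at 0.36. H2ac7 lay at -0.45 and H2bc7 at 0.08, H2ac15 at -0.53 and H2bc15 at 0.13, and H2ac11 at -0.17 and H2bc11 at 0.01. The H2A gene was thus below the control mean and the H2B gene above it in 4 of 5 pairs after quantile normalisation, and in the fifth H2ac8 and H2bc8 were both above it, at 0.37 and 0.19. These opposite signs depended on the scaling: they were found in 3 of 5 pairs with median scaling and in 1 of 5, H2ac12 with H2bc12, without scaling. The H2A gene was lower than its partner in 4 of 5 pairs under each of the 3 scalings. H2bc7, H2bc15, H2bc8 and H2ac8 were dim, at 118 to 150 in the controls, so their differences were compressed. The 0.01 of H2bc11 was smaller than the 0.14 between its controls. In the sLTβR-Fc-treated sample both genes lay above the control mean in 5 of 5 pairs with quantile or median scaling and in 4 of 5 without scaling, where H2ac12 lay at -0.079. H2ac15 also stood 0.30 lower on control 2 than on control 1, and H2ac11 0.55 lower, so part of the spread of the H2A genes was present between the controls.

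**Figure D2:**
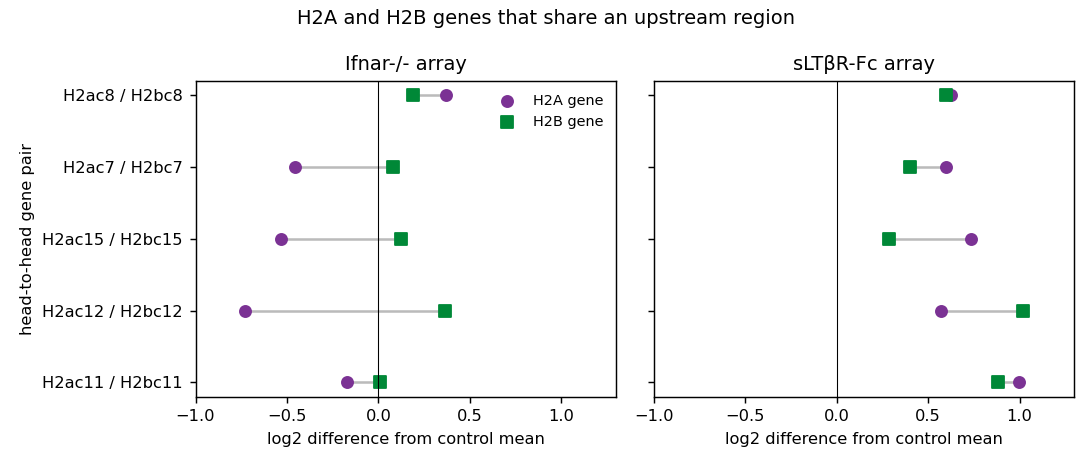
Log2 difference from the control mean (horizontal axis) of the H2A gene (circle) and the H2B gene (square) of the 5 head-to-head pairs (vertical axis), in the Ifnar-/- sample (left) and the sLTβR-Fc-treated sample (right), after quantile normalisation; a line joins the genes of a pair. On the left the H2A gene lies below its partner in 4 pairs, and on the right every point is above 0.

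Of 12 H2B genes compared, 9 lay above both controls in the Ifnar-/- sample and none below both, at a median of 0.16. With median scaling these counts were 8 and 2, against 31.1% and 39.8% of all genes. Without scaling they were 5 and 4, at a median of -0.0002, where 13.4% of all genes lay above both and 61.9% below. In the sLTβR-Fc-treated sample 11 lay above both and 1 below, at a median of 0.50, and without scaling 8 and 1, at 0.14. The unscaled shares of all genes there were 10.4% and 69.1%. H2bc18 passed the background filter on that array alone, so its place above both was fixed by the filter. H2bc4 read 288 and 306 in the controls, 531 in the Ifnar-/- sample and 533 in the sLTβR-Fc-treated sample, so both stood above the controls. Its log2 differences were 0.84 ± 0.22 and 0.85 ± 0.22, and its further probe gave 0.34 and 0.17. Without scaling they were 0.57 and 0.20. H2bc12 read 334 and 355 in the controls, 443 and 698 on the unreplicated arrays, the highest of the class in the sLTβR-Fc-treated sample (log2 1.02). A further, dimmer H2bc12 probe gave -0.13 and 0.22. H2bc9 was dim and near the controls, at 132 and 129, then 129.9 and 155.

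H2bc21, which encodes an H2B variant described in olfactory neurons, was the exception in the sLTβR-Fc-treated sample. It read 653 and 701 in the controls, 885 in the Ifnar-/- sample and 503 in the sLTβR-Fc-treated sample, highest on the one and lowest on the other. The log2 difference was 0.39 on the first and -0.43 on the second. A further probe of H2bc21 gave -0.01 and 0.66, against the direction of the brightest probe on both arrays, so the gene has no settled direction here.

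Of 9 H3 genes, 5 lay above both controls and 1 below in the Ifnar-/- sample, at a median of 0.16, and 8 and 0 in the sLTβR-Fc-treated sample, at 0.84. Without scaling these counts turned to 0 above and 5 below in the Ifnar-/- sample, at -0.13, where 13.4% and 61.9% of all genes lay. They were 6 and 2 in the sLTβR-Fc-treated sample, at 0.19, where 10.4% and 69.1% of all genes lay. H3c6 read 400.2 and 511 in the controls, 506 in the Ifnar-/- sample, between them, and 890 in the sLTβR-Fc-treated sample, the highest difference of the class at log2 0.98. H3c13 read 3745 and 3056, then 4426 and 5242, above both controls on each array. As deposited it read 4619 and 3330 in the controls, then 4055 and 4178, between the controls on both. H3c3 and H3c8 were the lowest of the class and dim. H3c3 read 142 and 142 in the controls, 132 in the Ifnar-/- sample and 164 in the sLTβR-Fc-treated sample, and H3c8 read 133 and 117 in the controls, 122 and 123 on the others.

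H4 genes, whose proteins are the same from gene to gene, numbered 12. Of these, 9 lay above both controls and 1 below in the Ifnar-/- sample, at a median of 0.07, and 10 and 0 in the sLTβR-Fc-treated sample, at 0.49. These counts include H4c8 and H4c14, which passed the background filter on the unreplicated arrays alone. Their place above both controls was fixed by that filter. Without scaling 3 H4 genes lay above and 6 below in the Ifnar-/- sample, at -0.05, against 13.4% and 61.9% of all genes. In the sLTβR-Fc-treated sample 9 and 2 did, at 0.08, against 10.4% and 69.1%. H4c11 had the highest differences on both, reading 336 and 364 in the controls, 493 in the Ifnar-/- sample and 665 in the sLTβR-Fc-treated sample (log2 0.49 and 0.93). H4c4 was the lowest, at 125 on control 1 and not above background on the other arrays.

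**Figure D3:**
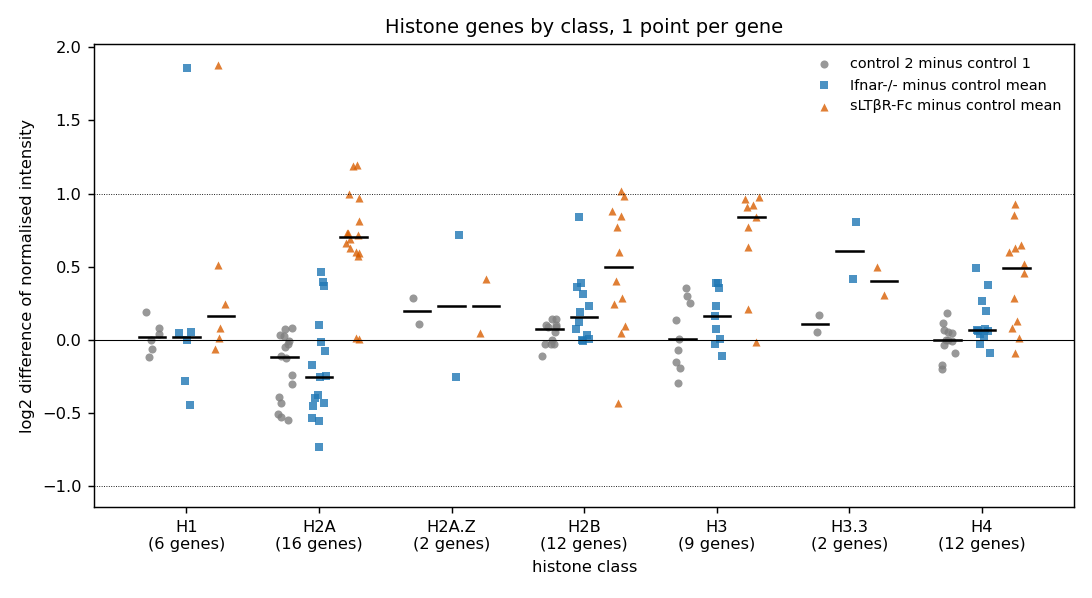
Log2 difference of normalised intensity (vertical axis) for each compared histone gene by class (horizontal axis): control 2 minus control 1 (circles), Ifnar-/- minus the control mean (squares) and sLTβR-Fc minus the control mean (triangles), after quantile normalisation, with black bars at class medians and dotted lines at 2-fold. H2A is the class with a median below 0 in the Ifnar-/- sample, at -0.25, and it also has the lowest median between the controls, at -0.11.

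Of the replication-independent variants, both H3.3 genes lay above both controls on each unreplicated array after quantile normalisation, and the H2A.Z genes split. H3f3a and H3f3b encode the same protein, H3.3, which is laid down independently of DNA copying. H3f3a read 780 and 875 in the controls, 1446 in the Ifnar-/- sample and 1022 in the sLTβR-Fc-treated sample, highest in the Ifnar-/- cells (log2 0.81 ± 0.19). H3f3b read 5518 and 5719, then 7479 and 7947, with log2 differences of 0.41 and 0.50. Of the genes for H2A.Z, a variant found at transcription start sites, H2az2 read 224 and 242 in the controls, 383 in the Ifnar-/- sample and 311 in the sLTβR-Fc-treated sample, above the controls on both. H2az1 went the other way in the Ifnar-/- sample, at 526 against 569 and 693 (log2 -0.26), and read 649 in the sLTβR-Fc-treated sample, between the controls. In the values as deposited H2az1, H2az2 and H3f3a lay below both controls in the sLTβR-Fc-treated sample, at 472, 237 and 728.

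Across all 59 genes, 33 lay above both controls in the Ifnar-/- sample and 15 below, at a median of 0.06. In the sLTβR-Fc-treated sample 51 lay above both and 2 below (H1f5 and H2bc21), at a median of 0.60, where 43.3% of all genes lay above both and 31.1% below. Among the 52 genes above background on every array the counts above and below both were 30 and 15 in the Ifnar-/- sample. They were 46 and 2 in the sLTβR-Fc-treated sample. H1f2, whose values chose the family, is in each of these counts above both and in the medians, with or without scaling. After quantile normalisation the filter fixed the place of H4c8 and H4c14 above both controls on each array among the 59. It did the same for H1f6 and H2bc18 in the sLTβR-Fc-treated sample. Size depended on the scaling. Without scaling, all genes together had a median of -0.10 in Ifnar-/- cells and -0.19 after sLTβR-Fc, and the histone medians were -0.07 and 0.15. Relative to all genes this leaves 0.02 and 0.34, in place of 0.06 and 0.60. The split of histone genes above and below both controls was then 14 and 33 in the Ifnar-/- sample, where 13.4% of all genes lay above both controls and 61.9% below. It was 37 and 12 in the sLTβR-Fc-treated sample, where those shares were 10.4% and 69.1%. The H2A median kept its side under each of the 3 scalings, at -0.25, -0.37 and -0.49 in the Ifnar-/- sample and 0.70, 0.39 and 0.30 in the sLTβR-Fc-treated sample for quantile, median and no scaling. Without scaling, the medians of H1 (-0.08), H2A.Z (-0.05), H2B, H3 and H4 turned below 0 in the Ifnar-/- sample. Those of H1 (-0.01), H2A.Z (-0.39) and H3.3 (-0.15) did so in the sLTβR-Fc-treated sample. Relative to all genes, H1 (0.02), H2A.Z (0.05), H2B (0.10) and H4 (0.05) stayed above 0 in the Ifnar-/- sample and H3 (-0.03) did not. In the sLTβR-Fc-treated sample H1 (0.18) and H3.3 (0.05) stayed above 0 on that measure and H2A.Z (-0.20) did not.

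**Figure D4:**
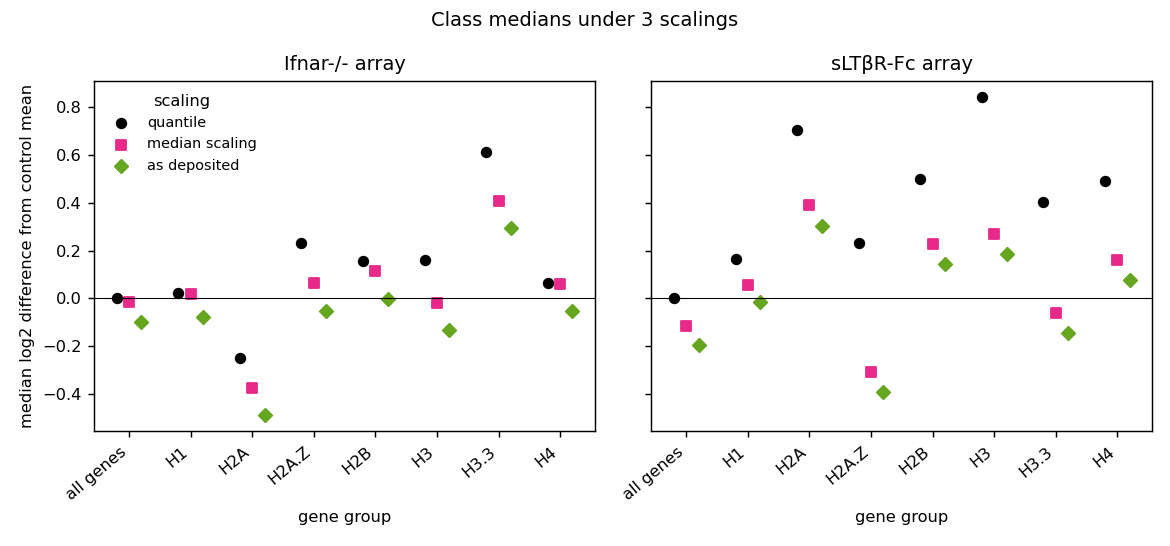
Median log2 difference from the control mean (vertical axis) of all genes and of each histone class (horizontal axis) under quantile normalisation (circles), median scaling (squares) and no scaling (diamonds), in the Ifnar-/- sample (left) and the sLTβR-Fc-treated sample (right). In the Ifnar-/- sample H2A is the lowest group under each scaling, and in the sLTβR-Fc-treated sample the H2A, H2B, H3 and H4 medians are above 0 under each and shrink without quantile normalisation.

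limma with Benjamini-Hochberg adjustment over all 14460 genes called 0 histone genes in either comparison, and 0.0% of all genes. At an unadjusted p under 0.05 it had 12 members in the Ifnar-/- sample and 35 in the sLTβR-Fc-treated sample, of 2853 and 3388 genes. The same test over the 10677 genes that exceeded background on all 4 arrays, with 51 members other than H1f2, called 4 members higher and 4 lower in the Ifnar-/- sample, against 9.23% and 9.53% of all genes, a share near the background. Those higher were H3f3a (adjusted p = 0.000501 in limma), H2bc4 (0.00133), H2az2 (0.00602) and H2ac8 (0.0107), and those lower were H2ac12 (0.00624), H2ac24 (0.00942), H1f10 (0.0159) and H2ac7 (0.0432). In the sLTβR-Fc-treated sample the restricted test called 41 members higher and 0 lower, against 13.3% and 9.36% of all genes. These calls depended on quantile normalisation. In the values as deposited, 0 members were called higher and 7 lower for Ifnar-/- (1.45% and 15.1% of all genes), and 2 higher and 3 lower for sLTβR-Fc (1.56% and 43.1%). With median scaling they were 0 and 0 (1.47% and 4.95%), and 3 and 1 (2.01% and 25.1%). The only spread these fits can measure is that between the controls, and the unreplicated arrays are taken to vary as much. In the restricted test after quantile normalisation this spread was pooled over genes of like intensity. Its adjusted p-values therefore hold nothing of a gene's own spread.

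Genes of S phase, when most histone genes are transcribed, were lower in the Ifnar-/- sample. Of 28 compared, 27 lay below both controls and 0 above, at a median of -0.46, where 30.5% and 41.5% of all genes did. Rrm1, for the large subunit of ribonucleotide reductase, read 2557 and 2032 in the controls and 888 in the Ifnar-/- sample. Rrm2, for the small subunit, read 924 and 766, then 299. With the replication licensing gene Cdc6 (log2 -1.32) and the flap endonuclease gene Fen1 (-1.16), these were the 4 genes of the list 2-fold below both controls. That count was 2 over the mean of all probes of a gene, 8 after background subtraction and 6 without scaling. In the sLTβR-Fc-treated sample the list had 11 genes above both controls and 10 below, at a median of 0.01, against 43.3% and 31.1% of all genes. In the values as deposited all 28 were below both, at -0.56, where 69.1% of all genes were, at a median of -0.19. There the median of the histone genes was 0.15.

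Among histone chaperones, which escort histones to and from DNA, 13 of 21 lay below both controls on each unreplicated array, at medians of -0.13 and -0.12, where 30.5% and 31.1% of all genes did. Without scaling 19 and 20 did, at medians of -0.43 and -0.65, or -0.33 and -0.46 relative to all genes. Nasp, a chaperone of linker histones and of H3 and H4, was the 1 gene 2-fold below both controls, reading 876 and 738 in the controls, 243 in the Ifnar-/- sample and 419 in the sLTβR-Fc-treated sample (log2 -1.73 ± 0.21 and -0.94 ± 0.21). Over the mean of its 4 probes it lay at -1.07 and -0.61, and 0 chaperones were 2-fold below both controls in the Ifnar-/- sample, while 3 were without control 2. Of the genes for making and trimming histone messages, 4 of 10 lay below both controls and 4 above in the Ifnar-/- sample. The shares of all genes were 30.5% and 41.5%. Npat, the coactivator of the clustered histone genes, singled out after its values were seen, read 772 and 639 in the controls, 343 in the Ifnar-/- sample and 592 in the sLTβR-Fc-treated sample, lowest in the Ifnar-/- cells (log2 -1.03 ± 0.21). Of 7 histone variants outside the name rule, 4 lay above both controls and 2 below in the Ifnar-/- sample, against 41.5% and 30.5% of all genes. Macroh2a2, 1 of the 4, read 120 there and the floor of 111 on the other arrays, so the background filter may have fixed its place. In the sLTβR-Fc-treated sample 3 and 0 did, against 43.3% and 31.1%.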

How the data were processed

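RNA of sorted marginal zone macrophages was hybridised to Illumina single-colour arrays. The authors deposited, for each of 45281 probes, its intensity on each array on a linear scale. GenomeStudio 2011.1 is named in the submitters' processing notes, and for background subtraction and scaling the method was not given in the sources used here. Gene symbols came from GEO's platform annotation (34885 with 1 symbol, 18 with several, 10378 with none), and sequences come from RefSeq windows of GRCm38.p6.

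The background of an array was its most frequent intensity, with the values below it mirrored for the spread, and the limit was the 95% point of that noise (113, 116, 107 and 109 for control 1, control 2, Ifnar-/- and sLTβR-Fc). Between 23168 and 24381 probes passed. Values were quantile normalised, raised to the floor of 111 and converted to log2. The number of arrays limits the precision. Each gene took the values of its brightest probe by mean over the arrays, which left 14460 genes with background exceeded on 1 array or more. limma 3.58.1 (R 4.3.3) fitted 3 group means to the 4 arrays with a mean-variance trend and 1 residual degree of freedom, with p-values adjusted by Benjamini-Hochberg to 0.05. An SE is from the fit on genes above background on every array, which was an alternative. In that fit the spread came wholly from the mean-variance trend, so an SE does not carry a gene's own spread. The scripts were tested on simulated data.

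Members, lists and tests were chosen with earlier results of these data known. Named members are all H1, H2A.Z and H3.3 genes above background, members 2-fold from both controls, and the highest and lowest of each class. From the S phase, histone message, chaperone and variant lists, genes 2-fold from both controls are named, and cell type markers are given by list. Alternatives covered scaling, background, floor, filter, probe choice and each control.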

Additional observations from a re-analysis of the deposited data

How the results depend on the processing

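The settings tried were no scaling, median scaling, background subtraction, a doubled floor, no filter on dim genes, the mean of all probes of a gene, genes above background on all arrays alone, and each control left out. H1f2, the 1 member 2-fold from both controls, kept its sign in every setting. Smaller differences did not always keep theirs. Without scaling, the sLTβR-Fc difference of H2ac12 went from 0.57 to -0.079 and that of H1f10 from 0.24 to -0.022. H1f2 was kept in the histone medians and counts that follow, except those of limma. For Ifnar-/-, the histone median of 0.06 became -0.074 without scaling, 0.008 with median scaling, 0.264 after background subtraction, 0.0 with the floor doubled, 0.044 without the filter, 0.056 over all probes and 0.062 to 0.074 without 1 control. For sLTβR-Fc, the median of 0.60 became 0.148, 0.233, 0.938, 0.361, 0.596 and 0.513 in the same settings, and 0.535 to 0.628 without 1 control. Histone genes above both controls in Ifnar-/- cells numbered 14 without scaling and 18 with the floor doubled, and those below both 33 without scaling. For sLTβR-Fc, those below both numbered 12 without scaling, 5 with median scaling, 1 with the floor doubled, 1 over all probes and 5 without either control. After background subtraction, 4 histone genes were 2-fold higher and 1 was 2-fold lower in Ifnar-/- cells, and 22 were 2-fold higher with sLTβR-Fc. Without 1 control 4 to 7 were 2-fold higher with sLTβR-Fc, and without scaling 1 was 2-fold lower. limma called 5 histone genes for Ifnar-/- with the floor doubled, 2 without the filter, and 8 among genes above background on all arrays, which became 7 without scaling and 0 with median scaling. For sLTβR-Fc it called 33, 4, 41, 5 and 4. With the floor doubled it called 12.1% and 10.9% of all genes for Ifnar-/- and sLTβR-Fc, and without the filter 3.18% and 4.13%. The 2 unscaled and median-scaled restricted fits were chosen after seeing the data, and the causes were not tested. No paired analysis was possible because the groups share fewer than 2 replicate numbers. Depth cannot be given for intensities. Dim genes near the floor have compressed differences.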
